A study of Mus musculus with 24 samples.

Results

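The genes described here are 10 established transcriptional targets of p53 other than Cdkn1a: Mdm2, Ccng1, Btg2, Sesn1, Sesn2, Trp53inp1, Zmat3, Aen, Phlda3 and Eda2r. They were chosen by name, and all 10 were found among the 15736 genes of the deposited count table. Bulk RNA-seq had been made from the otocyst epithelium, the vesicle that forms the mouse inner ear, dissected from embryos and pooled by genotype within each pregnant female. All embryos compared carried Rosa26rtTA/+, a doxycycline-dependent activator expressed from the Rosa26 locus, and all were exposed to doxycycline (1.5 mg/kg by injection into the mother, then chow with 200 mg/kg). The control pools (con) carried nothing further. The R2b pools also carried Tg(tetO-s(dn)Fgfr2b)/+, which on doxycycline makes a secreted dominant-negative FGFR2b that binds the ligands of FGFR2b and FGFR1b, so it can act outside the cells that make it. Doxycycline began at E9.75 for 12 hours (E9.75+12h, 3 litters used here), at E9.25 for 24 hours (E9.25+24h, 4 litters) or at E10.25 for 24 hours (E10.25+24h, 4 litters). Tissue was taken at E10.25 after the first and second exposures and at E11.25 after the third. The question addressed here is whether the transgene was accompanied by a broad change in p53 target genes or by a change in a few of them.

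p53, encoded by Trp53, is a transcription factor held at low protein level by MDM2, which marks it for degradation. Stress to DNA, ribosomes or metabolism releases p53, and it then switches on genes for cell-cycle arrest, repair, metabolic adjustment, cell death and its own inhibition, Mdm2 among them. Excess p53 activity is known to disturb the development of the ear and face in mice. Several of these genes also respond to other regulators, such as ATF4 for Sesn2 and growth-factor signals for Btg2.

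Where promoter sequence was at hand, the genes were searched for the letters p53 binds, because these show which members carry a p53-like sequence beside the start site and which do not. RefSeq promoter windows (GRCm38.p6, 250 bases before to 50 after a start site) covered 8 of the 10 genes in 10 windows. Trp53inp1 and Zmat3 had no entry. The canonical p53 half-site, 10 bases around a core of the form CNNG in which each N is A or T, was searched by its full consensus, which equals its own reverse complement. It lay in 5 of the 10 windows, in 4 genes, compared with 8.36% of all 32851 windows. The same Aen site lay in overlapping windows of different start sites, so the window count holds it repeatedly. A full site, which is a pair of half-sites separated by 0 to 13 bases, lay in none of the 10 windows and in 0.0731% of all windows. The half-sites of Sesn1, Mdm2 and Ccng1 are shown in capitals, 173, 186 and 185 bases before their start sites, each with 30 bases on either side. The stretches of Mdm2 and Ccng1 were outside annotated transcripts, and that of Sesn1 was inside a longer Sesn1 transcript, from which the window's start site is a later one.
Sesn1, chr10:41887236-41887305, + strand: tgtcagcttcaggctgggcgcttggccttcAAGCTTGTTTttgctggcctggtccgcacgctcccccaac
Mdm2, chr10:117710905-117710974, - strand: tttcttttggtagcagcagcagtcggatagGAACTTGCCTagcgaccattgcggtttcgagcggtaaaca
Ccng1, chr11:40755432-40755501, - strand: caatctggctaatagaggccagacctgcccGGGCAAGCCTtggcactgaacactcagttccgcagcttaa

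Aen carried a half-site directly followed by a second core in a less strict form. The stretch, in an exon and untranslated region of Aen, is shown with the pair of cores in capitals. A pair of cores spaced this way, with no demand on the letters around them, lay in 7.08% of all windows. The full site that the consensus search found at Cdkn1a, the gene best known as a p53 target, is printed beside it. Both half-sites are in capitals, and the stretch begins 73 bases before the start site. The Cdkn1a window also held a pair of cores with the spacing of the Aen pair (chr17:29090928-29090947, not printed). That pair begins with the second half-site shown, 51 bases before the start site, and runs past the end of the printed stretch. The Aen and Cdkn1a stretches shown are thus matches of different kinds.
Aen, chr7:78895937-78895956, + strand: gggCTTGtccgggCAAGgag
Cdkn1a, chr17:29090906-29090937, + strand: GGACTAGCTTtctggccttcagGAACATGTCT
No half-site was present in the windows of Sesn2, Btg2, Phlda3 or Eda2r. These matches are descriptions of letters near the start site. p53 sites of several targets, Mdm2 among them, are known to lie further inside the gene, beyond such windows.

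Values are given as TMM CPM, read counts relative to a library size scaled by edgeR's trimmed mean of M-values, in the order of the litters. Library totals ran from 18676615 to 28241583 counts, and the 10 genes had between 125 counts (the lowest Eda2r pool) and 6845 counts (the highest Trp53inp1 pool), so each was well covered. FDR stands for the Benjamini-Hochberg adjusted p of edgeR's quasi-likelihood test over all genes tested, and a gene was called when it was under 0.05. The 3 exposures went through separate sequencing requests, and a difference in level between them cannot be told apart from the request. Before any result, 1 litter has to be named. Ighg1, whose reads come with the antibody tail of the secreted receptor, stood at 1001 to 2979 CPM in R2b and at most 1.90 CPM in con in the first 2 exposures. At E10.25+24h, the library labelled con of litter 1 held 702.5 CPM of Ighg1 and the library labelled R2b held 56.3 CPM, against their labels. The library labelled con of litter 3 also held 206 CPM, while those of litters 2 and 4 held 1.46 and 0.758 CPM. Results at E10.25+24h are therefore given by label, with and without litter 1.

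**Figure D1:**
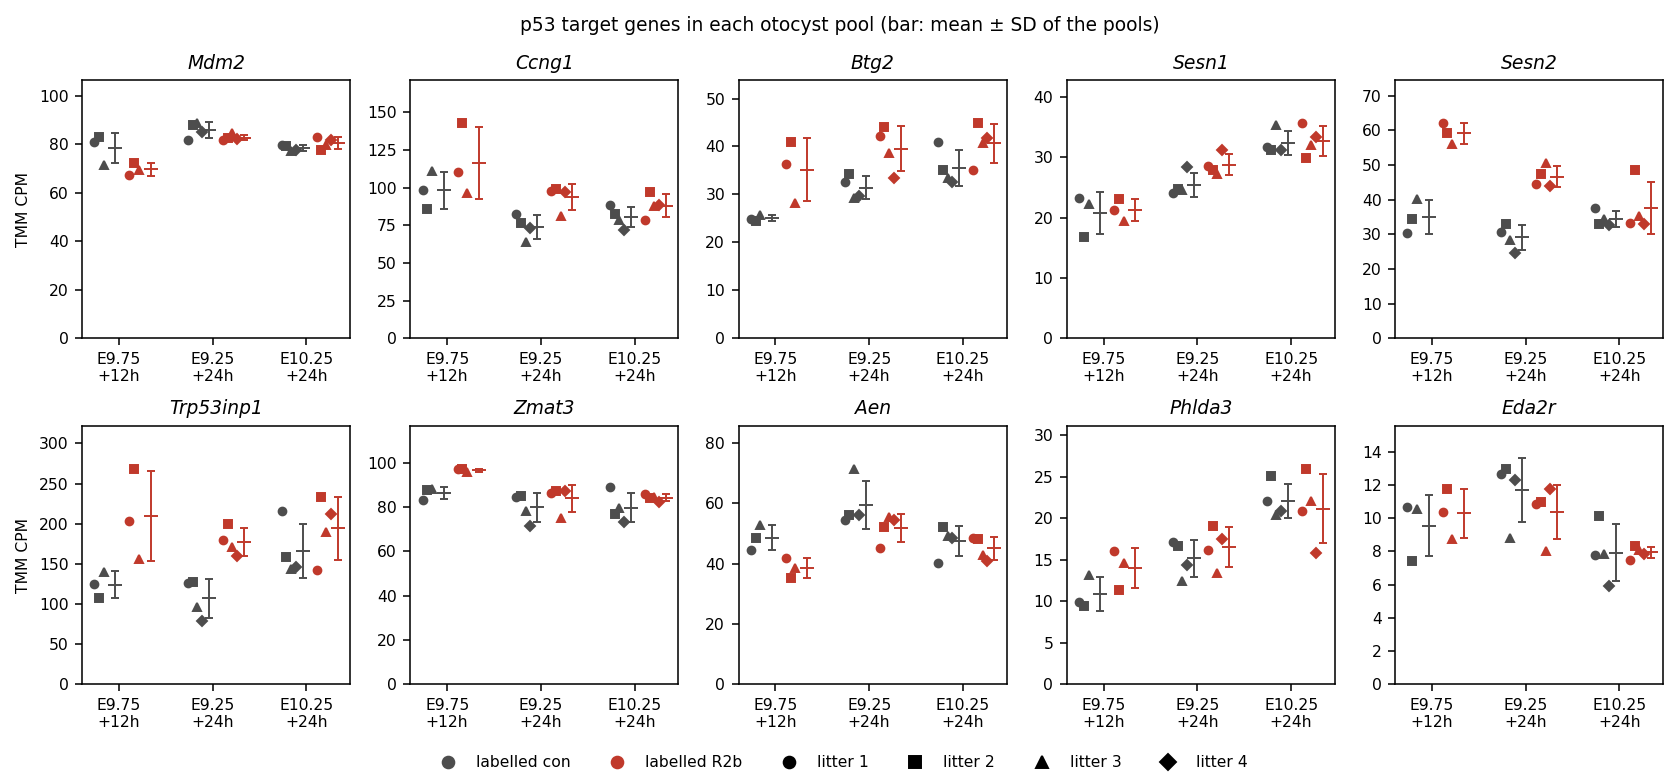
TMM CPM (y axes, from 0) of each of the 10 p53 target genes in every otocyst pool, by exposure (x axis). Grey marks pools labelled con and red pools labelled R2b, marker shape gives the litter, and the dash with bars is the mean ± SD of the pools. Sesn2 and Trp53inp1 separate con from R2b at E9.75+12h and E9.25+24h, while Mdm2 stays between 67.3 and 88.8 CPM in all pools.

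Sesn2 and Trp53inp1 had the largest rises of the 10 p53 targets, and how many of the set passed the test depended on single litters and on whether pools were compared within litters. At E9.75+12h, 3 of the 10 genes were called in R2b (Sesn2, Trp53inp1 and Btg2, all higher), when 20.0% of all genes tested were called (1518 higher, 1455 lower). Without litter 1 none of the 10 was called, when 2.92% of all genes were. At E9.25+24h, 4 were called (Ccng1 besides these 3, all higher), when 15.6% of all genes were called (1362 higher, 973 lower). With a litter block, that is, comparing the pools within each mother, 5 were called higher and 1 lower at E9.25+24h, when 40.6% of all genes were called (20.5% higher, 20.1% lower). Without litter 1 and with no block, Sesn2 alone was called there, when 2.15% of all genes were. Sesn2, Trp53inp1 and Btg2 were called higher in both exposures, as were 4.97% of the 14611 genes tested in both. The median log2 difference of the 10 genes was 0.20 at E9.75+12h, where the median over all genes was 0.01, and 0.15 at E9.25+24h, where it was -0.01.

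Mdm2, on chromosome 10 (GRCm38, 117688875 to 117710758), encodes the ubiquitin ligase that targets p53 for degradation and is the usual readout of p53 activity because it closes the feedback loop. At E9.75+12h its level was 81.1, 83.1 and 71.6 CPM in con and 67.3, 72.4 and 69.4 CPM in R2b. R2b was below con in all 3 litters and the groups overlapped. The fold of R2b over con was 0.887 (95% interval 0.763 to 1.03, edgeR FDR 0.238). At E9.25+24h con held 81.8, 88.2, 88.8 and 85.3 CPM and R2b 81.9, 82.8, 84.6 and 82.3 CPM. Here the pools of both genotypes lay within a narrow band, and the fold was 0.964 (95% interval 0.903 to 1.03, edgeR FDR 0.410). The upper bounds of both intervals thus allow a rise of Mdm2 of up to 1.03-fold. With all libraries in one fit, Mdm2 was called lower at E9.75+12h (log2 -0.20, edgeR FDR 0.0109).

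Sesn2, on chromosome 4 (132492032 to 132510501), encodes sestrin 2, a stress protein that restrains mTORC1 in response to oxidants and amino acid shortage. At E9.75+12h it stood at 30.4, 34.5 and 40.3 CPM in con and at 62.0, 59.2 and 56.1 CPM in R2b. Every R2b pool was above every con pool. Sesn2 rose 1.69-fold (95% interval 1.403 to 2.03, log2 0.76 ± 0.12 SE, edgeR FDR 0.00219), with an SD of 4.98 CPM among con and 2.94 CPM among R2b pools (n = 3). The call was lost without litter 1 (edgeR FDR 0.0746). At E9.25+24h con held 30.8, 32.8, 28.2 and 24.6 CPM and R2b 44.6, 47.4, 50.6 and 43.9 CPM. The groups were again apart. The rise was 1.60-fold (95% interval 1.38 to 1.86, edgeR FDR 0.00347). In bulk pools, fewer cells of a type and less RNA per cell cannot be told apart, which holds for each gene below as well. Its paralog Sesn1, on chromosome 10 (41809935 to 41908424), was not called. At E9.75+12h it stood at 23.3, 16.9 and 22.2 CPM in con and 21.2, 23.2 and 19.4 CPM in R2b, and the groups overlapped. The fold was 1.02 (95% interval 0.812 to 1.29, edgeR FDR 0.904). At E9.25+24h Sesn1 was at 24.0, 24.8, 24.6 and 28.4 CPM in con and 28.5, 27.9, 27.3 and 31.3 CPM in R2b. The R2b pool was the higher of its litter in 4 of 4 litters, by a fold of 1.13 (edgeR FDR 0.159). The litter block gave a call of Sesn1 as higher (edgeR FDR 0.0271).

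Trp53inp1, on chromosome 4 (11156431 to 11174379), encodes a p53-induced nuclear protein that takes part in autophagy and cell death. It had the largest SD in CPM of the 10 genes at E9.75+12h, with 124.5, 107.5 and 140.3 CPM in con and 203, 268 and 156 CPM in R2b. The lowest R2b pool (litter 3) stood only a little above the highest con pool, and litter 3 also had the smallest rise of Sesn2. Trp53inp1 rose 1.69-fold (95% interval 1.30 to 2.19, edgeR FDR 0.0114). At E9.25+24h the levels were 127, 127, 95.6 and 78.3 CPM in con and 180, 199, 170.4 and 159 CPM in R2b. The groups did not overlap, and Trp53inp1 rose 1.66-fold (95% interval 1.31 to 2.10, edgeR FDR 0.0161). Trp53inp1 was not called at E9.75+12h without litter 1 (edgeR FDR 0.116) or with the block and without litter 2 (0.068). With no block it was not called at E9.25+24h without litter 1, 2 or 3 (edgeR FDR 0.0730, 0.0663 and 0.0673). With litter as a block it was called there (edgeR FDR 3.09e-05), also with any 1 litter left out.

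Btg2, on chromosome 1 (134075170 to 134079120), encodes an antiproliferative cofactor of mRNA deadenylation that is also known as an early-response gene. At E9.75+12h its con pools were close together at 24.9, 24.5 and 25.7 CPM, and its R2b pools stood at 36.4, 41.0 and 28.1 CPM. All R2b pools were above all con pools, and Btg2 rose 1.41-fold (95% interval 1.13 to 1.75, edgeR FDR 0.0328). This call was lost with litter as a block (edgeR FDR 0.0817) and without litter 1 or 2 (0.258 and 0.124). At E9.25+24h con held 32.6, 34.3, 29.2 and 29.7 CPM and R2b 42.1, 44.0, 38.6 and 33.4 CPM. The groups overlapped through litter 4, the R2b pool was the higher in 4 of 4 litters, and the rise was 1.26-fold (95% interval 1.08 to 1.46, edgeR FDR 0.0496). That call was lost without litter 1, 2 or 3 (edgeR FDR 0.197, 0.135 and 0.151), with all libraries in one fit (0.0532), with median-of-ratios size factors (0.0506) and without the filter on low counts (0.0513). With litter as a block it was made (edgeR FDR 0.00109).

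Ccng1, on chromosome 11 (40748552 to 40755311), encodes cyclin G1, which acts with a phosphatase to regulate MDM2. At E9.75+12h its levels were 98.1, 86.1 and 111 CPM in con and 110.2, 143 and 96.3 CPM in R2b, so the direction differed between litters. The fold was 1.18 (95% interval 0.950 to 1.48, edgeR FDR 0.254). At E9.25+24h con held 82.6, 76.5, 63.7 and 73.2 CPM and R2b 97.5, 99.3, 81.0 and 96.8 CPM. The lowest R2b pool, of litter 3, fell inside the con range, and litter 3 also had the lowest con pool. Ccng1 rose 1.26-fold (95% interval 1.10 to 1.46, edgeR FDR 0.0369), with the R2b pool higher in 4 of 4 litters. With no block this call was lost without litter 1, 2 or 4 (edgeR FDR 0.107, 0.164 and 0.0987) and with all libraries in one fit (0.0552). With litter as a block it was made (edgeR FDR 0.000117), also with any 1 litter left out.

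Aen, on chromosome 7 (78895854 to 78911209), encodes a nuclease that enhances p53-dependent apoptosis, and its point estimates ran the other way. At E9.75+12h it stood at 44.5, 48.3 and 52.9 CPM in con and at 41.7, 35.3 and 38.6 CPM in R2b. Every R2b pool was below every con pool, as for 19.0% of all genes tested. The fold was 0.793 (95% interval 0.667 to 0.943), which missed the threshold (edgeR FDR 0.06). DESeq2 called Aen lower (adjusted p 0.0341), as did edgeR with all libraries in one fit (FDR 0.0272). At E9.25+24h con held 54.6, 56.1, 71.3 and 56.0 CPM and R2b 45.2, 52.1, 55.4 and 54.6 CPM, with R2b the lower in 4 of 4 litters. The fold was 0.871 (95% interval 0.745 to 1.02, edgeR FDR 0.205), and with litter as a block Aen was called lower (edgeR FDR 0.0195).

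Zmat3, on chromosome 3 (32334792 to 32366014), encodes an RNA-binding zinc-finger protein that acts on splicing and growth arrest. At E9.75+12h it was at 83.5, 87.8 and 88.2 CPM in con and 97.1, 97.3 and 95.9 CPM in R2b. The groups did not overlap, as for 19.8% of all genes in this direction, and the difference between means of 86.5 and 96.8 CPM did not pass the test (95% interval of the fold 0.979 to 1.28, edgeR FDR 0.214). At E9.25+24h con ran from 71.4 to 85.3 CPM and R2b from 74.9 to 87.6 CPM, a fold of 1.05 (95% interval 0.937 to 1.18). In all, 4 of the 10 genes had all R2b pools above all con pools at E9.75+12h and 2 (Sesn2 and Trp53inp1) at E9.25+24h, where 12.2% of all genes did so.

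Phlda3, on chromosome 1 (135766119 to 135769136), encodes a pleckstrin-homology protein that competes with AKT for membrane lipids. At E9.75+12h it stood at 9.88, 9.39 and 13.2 CPM in con and 16.1, 11.4 and 14.6 CPM in R2b, higher in 3 of 3 litters with overlapping groups. The fold was 1.30 (95% interval 0.974 to 1.72, edgeR FDR 0.180), an interval wide enough to hold both no difference and a rise as large as that of Sesn2. At E9.25+24h it ran from 12.4 to 17.1 CPM in con and from 13.4 to 19.0 CPM in R2b (fold 1.09, 95% interval 0.879 to 1.35). Eda2r, on the X chromosome (97333840 to 97377216), encodes a receptor of the tumor necrosis factor family for ectodysplasin A2. It was the scarcest of the 10, at 10.7, 7.43 and 10.54 CPM in con and 10.4, 11.7 and 8.76 CPM in R2b in the first exposure. In the second it ran from 8.81 to 12.96 CPM in con and from 8.01 to 11.7 CPM in R2b. Its folds of 1.08 (95% interval 0.806 to 1.44) and 0.889 (95% interval 0.691 to 1.14) lay on opposite sides of 1, and neither passed the test (edgeR FDR 0.725 and 0.511).

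**Figure D2:**
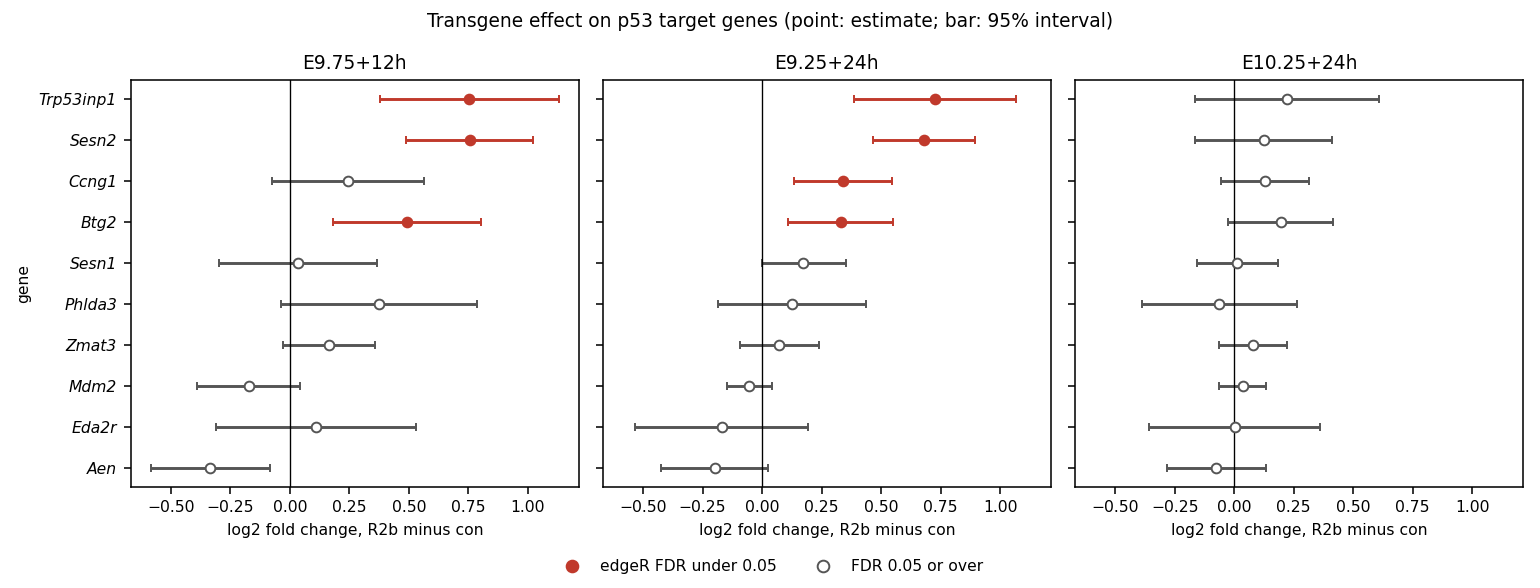
Log2 difference, R2b minus con, of each gene (points) with its 95% interval (bars) in the 3 exposures; filled red points had an edgeR FDR under 0.05. Sesn2 and Trp53inp1 lie near 0.7 in the first 2 panels, the Mdm2 interval spans 0 in each panel, and no gene was called at E10.25+24h by label.

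Cdkn1a, the cyclin-dependent kinase inhibitor p21, stood after E9.75+12h at 71.1, 71.6 and 85.8 CPM in con and 141, 156.5 and 126 CPM in R2b (log2 0.89, edgeR FDR 0.000853), with a like difference at E9.25+24h (log2 0.94, edgeR FDR 0.00201). Within litters at E9.75+12h, the R2b-to-con ratio of Sesn2 was above that of Cdkn1a in 1 of 3 litters, as was that of Trp53inp1 in 1 of 3. At E9.25+24h neither was above Cdkn1a in any litter.

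Litter sizes of the response can be read from the ratios of paired pools. At E9.75+12h the median log2 ratio of the 10 genes was 0.19, 0.56 and 0.04 in litters 1 to 3, and 6, 8 and 5 of the 10 genes were higher in R2b. In litter 2 the ratio of Trp53inp1 was 1.32 and that of Btg2 0.74, and in litter 3 they were 0.16 and 0.13. At E9.25+24h the medians were closer, at 0.13, 0.18, 0.13 and 0.23, with 7, 7, 6 and 7 genes higher. There the ratio of Sesn2 was between 0.53 and 0.84 and that of Trp53inp1 between 0.51 and 1.02.

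**Figure D3:**
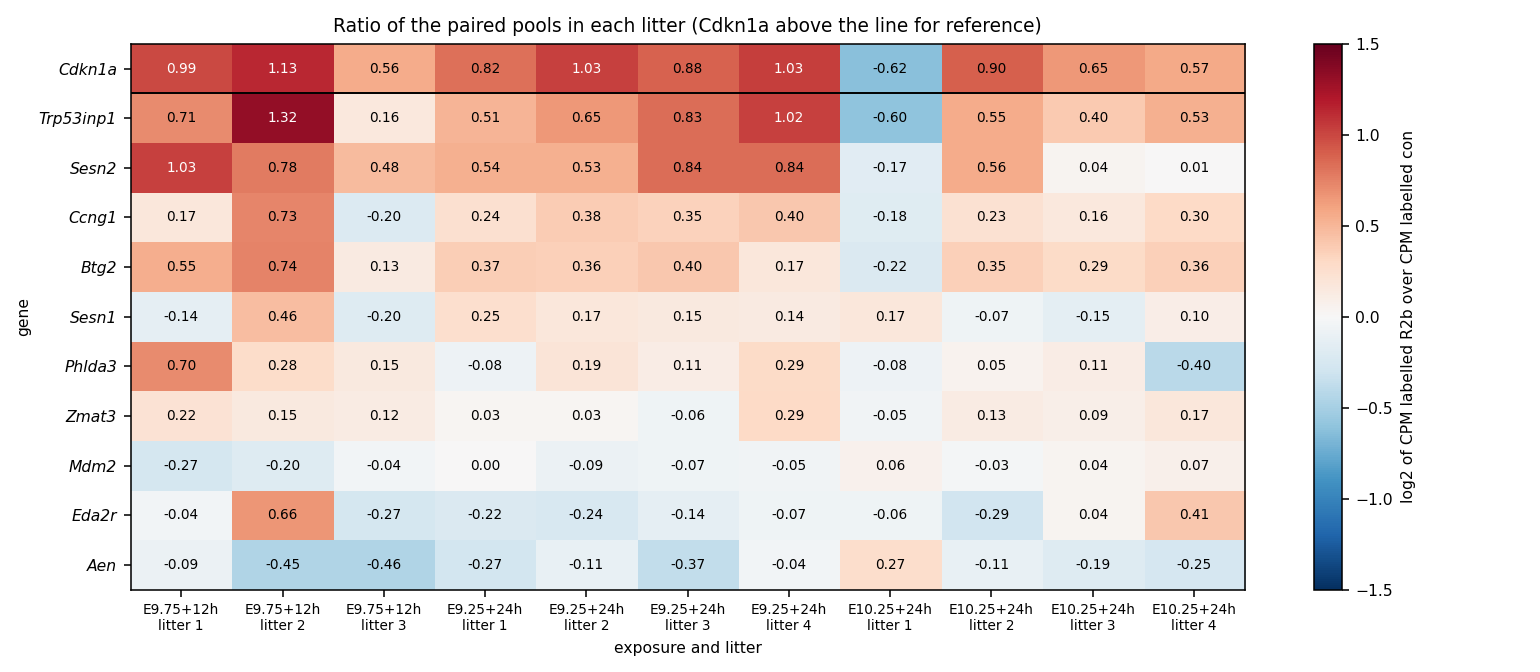
Log2 ratio of the pool labelled R2b over the pool labelled con of each litter (columns, 11 litters in 3 exposures) for Cdkn1a, above the line, and the 10 p53 target genes (rows); red is higher in R2b and blue lower. In E10.25+24h litter 1, Cdkn1a (-0.62) and Trp53inp1 (-0.60) have the opposite sign to their ratios in all other litters.

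At E10.25+24h no gene of the 10 was called, and 0.0% of the 15203 genes tested were called by edgeR (175 genes, 1.15%, had an unadjusted p under 0.05, and DESeq2 called 0). Trp53inp1 stood at 215.7, 159, 144 and 146.5 CPM where the label was con and at 142, 233, 189 and 212 CPM where it was R2b. In litter 1 the library labelled con was the higher, and in litters 2 to 4 the library labelled R2b was. Its log2 difference was 0.22 with all litters and 0.50 without litter 1 (edgeR FDR 0.0934). When litter was a block and litter 1 was left out, Trp53inp1 (edgeR FDR 0.0198) and Btg2 (log2 0.34, edgeR FDR 0.0389) were called higher, when 2.79% of the genes tested were called higher and 1.25% lower. Btg2 stood at 40.9, 35.1, 33.3 and 32.7 CPM where the label was con and at 35.1, 44.8, 40.7 and 41.9 CPM where it was R2b. Cdkn1a was also called higher in that fit (log2 0.71, edgeR FDR 0.0198).

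Sesn2 was not called at this exposure in any alternative run. By litter, Sesn2 stood at 37.7, 33.1, 34.3 and 32.7 CPM where the label was con and at 33.4, 48.6, 35.4 and 32.9 CPM where it was R2b. Only the library labelled R2b of litter 2 stood apart, and the paired log2 ratios of litters 2 to 4 were 0.56, 0.04 and 0.01. Without litter 1 the log2 difference of Sesn2 was 0.23 ± 0.14 (SE, edgeR FDR 0.490). Mdm2 ran from 77.5 to 79.7 CPM under the con label and from 77.7 to 83.0 CPM under the R2b label (fold 1.03, 95% interval 0.958 to 1.10). Ccng1 had ratios of 0.23, 0.16 and 0.30 in litters 2 to 4 and -0.18 in litter 1, and was not called with the block and without litter 1 (log2 0.24, edgeR FDR 0.0579). Aen had ratios of -0.11, -0.19 and -0.25 in litters 2 to 4 and 0.27 in litter 1. Sesn1 ran from 31.2 to 35.4 CPM under the con label and from 29.9 to 35.6 CPM under the R2b label, and Zmat3 from 73.5 to 89.3 CPM and from 82.5 to 86.1 CPM. Phlda3 ran from 20.4 to 25.0 CPM and from 15.8 to 25.9 CPM, and Eda2r from 5.92 to 10.1 CPM and from 7.49 to 8.31 CPM. In each of these 4 genes the labelled groups overlapped. They had log2 differences between -0.06 and 0.08 with all litters, and none was called in any alternative at this exposure.

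Whether the transgene's effect itself differed between exposures was tested as a contrast over all 22 libraries. No gene of the 10 was called, and 0.0% of the 15688 genes tested were (12.2% and 8.57% had an unadjusted p under 0.05 in the 2 contrasts). The effect on Sesn2 was lower by label at E10.25+24h than at E9.25+24h by a log2 of -0.56 ± 0.16 (SE, edgeR FDR 0.292). It was -0.47 without litter 1 of E10.25+24h (edgeR FDR 0.803), and -0.73 without litter 2 of E10.25+24h, where it was called (edgeR FDR 0.0288). That last fit kept litters 1 and 3 of E10.25+24h, whose libraries labelled con held 702.5 and 206 CPM of Ighg1. The effect on Trp53inp1 was lower by -0.51 ± 0.25 with all litters (edgeR FDR 0.611) and by -0.24 without litter 1 (edgeR FDR 1). Between the exposures that end at E10.25, Sesn2 and Trp53inp1 differed by 0.06 ± 0.18 and 0.01 ± 0.28 (SE), so for neither gene was a difference between 12 and 24 hours of doxycycline detected.

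The wider p53 pathway was examined with lists of regulators and further targets. At E9.75+12h, 9.78% of all genes tested were called lower. Of 12 regulators of p53 tested, 5 were called lower and none higher there, with a list median log2 difference of -0.37. They were Chek2 and Chek1, the checkpoint kinases (log2 -0.84, edgeR FDR 0.00195, and -0.88, edgeR FDR 0.00249), Atr, the kinase that responds to stalled replication (log2 -0.57, edgeR FDR 0.00349), Usp7 and Mdm4. Without litter 1 none of the 12 was called in that exposure, with or without the block, and the median was -0.33 with no block. At E9.25+24h, when 6.5% of all genes were called lower, Chek1, Usp7 and Atr were (log2 -0.35, -0.21 and -0.18), and the list median was -0.18. None was called at E9.25+24h without litter 1 and with no block. In that exposure 6 of the 12 were called lower with litter as a block, when 20.1% of all genes were. Trp53 was among the 6 (edgeR FDR 0.00282). After E9.75+12h, Trp53 itself stood at 257, 244 and 294 CPM in con and 212, 224 and 276 CPM in R2b, a log2 difference of -0.16 that did not pass the test (edgeR FDR 0.362).

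Of 24 further targets for arrest, repair and metabolism, 4 were called higher and 2 lower at E9.75+12h, with a median of 0.05. That share was near the 20.0% of all genes called in this exposure. Besides Cdkn1a, those higher were Abhd4, a lipid hydrolase (log2 0.94, edgeR FDR 0.000813), Trp53cor1, the long noncoding RNA next to Cdkn1a (log2 1.39, edgeR FDR 0.00159), and Dcxr. Trp53cor1 lies beside Cdkn1a on the opposite strand, and the sources used here do not say whether counting used the strand. Those lower were Ckap2 and Gtse1, both of which act at mitosis (log2 -0.81, edgeR FDR 0.00139, and -0.75, edgeR FDR 0.0108). Neither was called without litter 1, while 3 genes were still called higher. At E9.25+24h Cdkn1a and Abhd4 (log2 0.85, edgeR FDR 0.00241) were called higher and Ckap2 (log2 -0.28, edgeR FDR 0.0189) lower, with a median of 0.02. Of all genes, 9.09% were called higher and 6.5% lower there. The block raised the counts of the list at E9.25+24h to 6 higher and 4 lower. With it 20.5% of all genes were called higher and 20.1% lower.

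Of 10 further targets that act in cell death, 1 was called higher and none lower at E9.75+12h, namely Bbc3, which encodes the BH3-only protein PUMA (log2 0.76, edgeR FDR 0.0187). The median of this list was -0.15. Its share called was below that of all genes, and Bbc3 was not called without litter 1 or without litter 3. At E9.25+24h Perp, a desmosomal membrane protein (log2 0.92, edgeR FDR 0.0221), and Tnfrsf10b, a death receptor (log2 0.36, edgeR FDR 0.0373), were called higher, and Pidd1, a death-domain protein (log2 -0.38, edgeR FDR 0.0180), lower. The median there was -0.07, and 15.6% of all genes were called. None of the list was called without litter 1 or without litter 2 when there was no block. Comparing within litters, 3 were called higher and 2 lower at E9.25+24h, when 20.5% of all genes were called higher and 20.1% lower. By label, no gene of these 3 lists was called at E10.25+24h, and their medians were -0.06 for regulators, 0.01 for arrest, repair and metabolism, and -0.02 for cell death. With the block and without litter 1, Cdkn1a and Abhd4 were called higher and Gtse1 lower.

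**Figure D4:**
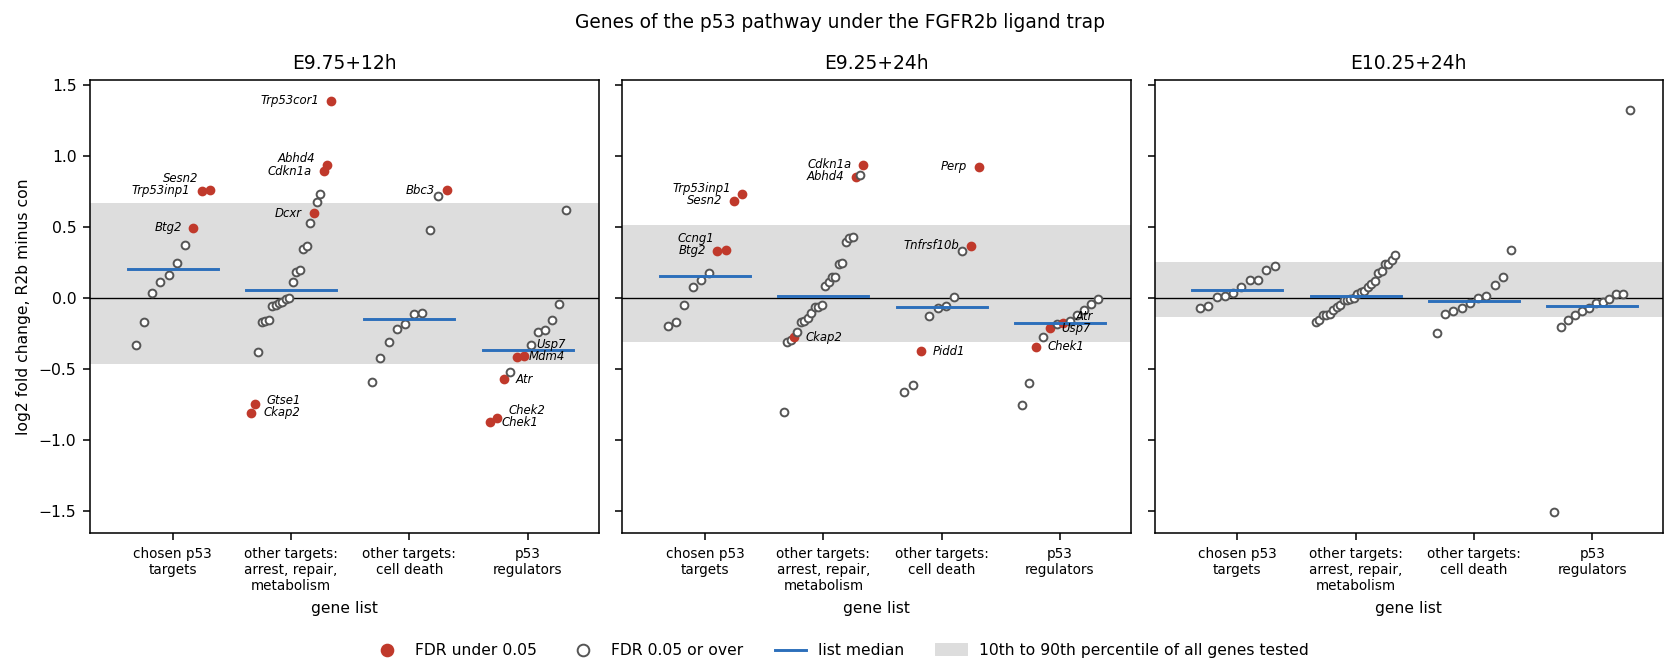
Log2 difference, R2b minus con, of the 10 chosen p53 targets, 24 further targets for arrest, repair and metabolism, 10 for cell death and 12 regulators of p53 (points, ordered within each list), by exposure. Filled red points were called by edgeR and are named, blue lines are list medians, and the grey band runs from the 10th to the 90th percentile of all genes. Called genes lie on both sides of 0 among the targets and only below 0 among the regulators in the first 2 panels.

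The make-up of the pools was read from marker genes fixed by name. The summed level of 12 otic epithelial markers, Pax2, Oc90 and Epcam among them, was after E9.75+12h 3854 to 4141 CPM in con and 4307 to 5166 CPM in R2b, and none was at 0, so the labelled tissue was present. Markers of otic neuroblasts, 8 of 9 in the table and none at 0, summed in that exposure to 266 to 308 CPM in con and 428 to 478 CPM in R2b, with 5 of them called higher. At E9.25+24h the same sum was 182 to 225 CPM in con of litters 1 to 3, 382 CPM in con of litter 4, and 206 to 221 CPM in R2b. None of the 8 was called there with all litters. Comparing within litters, Neurog1 was called higher and Isl1 lower, when 20.5% of all genes were called higher and 20.1% lower. Without litter 4, 7 of the 8 had a positive difference (median 0.20) and Stmn2 was called higher, when 8.64% of all genes were. The block then gave 3 higher (Stmn2, Tubb3 and Neurog1) and 1 lower, when 21.3% of all genes were called higher and 19.9% lower. Mesenchymal markers (11 of 11) at E9.75+12h summed to 113 to 395 CPM in con and 249.6 to 446 CPM in R2b, with Lum and Dcn called higher. Without litter 3, 8 of the 11 were called higher (median log2 difference 1.175), when 6.01% of all genes were. Without litter 2 the median was -0.405, with Lum and Dcn still called higher. The mesenchymal sums at E9.25+24h were 54.3 to 1318 CPM in con and 83.3 to 1240 CPM in R2b. None was called there with no block and all litters, and the block called Dcn and Lum higher. Erythroid markers (10 of 12 in the table) at E9.75+12h summed to 18.5 to 685 CPM in con and 81.1 to 109 CPM in R2b. None of the 8 tested was called and their median log2 difference was -1.51. Without litter 2, however, 7 of the 9 then tested were called lower, when 15.0% of all genes were. At E9.25+24h the erythroid markers summed to 6.16 to 1186 CPM in con and 8.59 to 470.0 CPM in R2b. At E10.25+24h the library labelled R2b of litter 3 held 4788 CPM of them and the other 7 held 156 to 618 CPM. Endothelial markers (10 of 10) at E9.75+12h summed to 8.03 to 47.8 CPM in con and 10.5 to 31.3 CPM in R2b, with Tek called lower (log2 -1.41, edgeR FDR 0.0158). Without litter 2, 4 of the 8 tested were called lower, when 15.0% of all genes were. Without litter 3 none of the 8 was called and 7 had a positive difference. Hindbrain markers (4 of 12 in the table) there summed to 4.39 to 13.3 CPM in con and 6.91 to 13.35 CPM in R2b, with none called. No marker in the table was at 0 throughout a group, but no gene of the table had fewer than 108 counts in total. The lack of zeros therefore says little about the make-up of the pools. The part of any of these markers in the differences of the p53 targets was not tested.

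Among the control pools the 10 genes were ordered by level per length of exon (CPM per kilobase, mean ± SD). At E9.25+24h Ccng1 was highest at 21.1 ± 2.25, followed by Mdm2 at 16.9 ± 0.624 and Trp53inp1 at 16.5 ± 3.73, whose means were within their SDs of each other. Btg2, Aen, Phlda3, Sesn2, Zmat3 and Sesn1 followed from 11.5 down to 6.40, each within the SDs of its neighbour, and Eda2r was lowest at 1.98 ± 0.328, apart from all others. Ccng1 was also highest at E9.75+12h (28.0 ± 3.52). At E10.25+24h, where the libraries labelled con of litters 1 and 3 held transgene reads, Trp53inp1 came first (25.7 ± 5.19), with Ccng1 (22.9 ± 1.97) within its SD. Phlda3 followed Mdm2 there at 14.2 ± 1.35, while at E9.75+12h it had stood above only Sesn1 and Eda2r (6.94 ± 1.32). Eda2r was lowest in every exposure.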

How the data were processed

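The authors deposited 1 table of raw read counts per Ensembl gene. Novoalign 2.08.03 and mm10 are named in the submitters' processing notes. The counter, its use of strand and the annotation are not given in the sources used here. Libraries were stranded and oligo(dT)-selected, per the labels' protocols. Columns were matched to 22 of 24 samples by title. The other 2 columns matched none and were not used. Symbols came from GENCODE M21 (15522 of 15736 genes). No exon of the 10 genes overlapped an exon of another gene in it.

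From the deposited counts, each exposure was fitted alone in edgeR 4.0.16 (R 4.3.3; TMM, filterByExpr, quasi-likelihood test, Benjamini-Hochberg over all genes tested, FDR under 0.05). All 10 genes passed the filter in each exposure. Effects were compared between exposures in 1 fit of 6 group means. The code was tested on simulated data. Replicates are pools from separate pregnant females, so p-values measure the spread between such pools. The alternatives run were a litter block, each litter left out, a joint fit, DESeq2 1.42.0, robust dispersion, RLE size factors, and either no filter or a mean CPM of at least 1. Leaving out litters 1 and 3 of E10.25+24h was added after the data were seen.

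The con and R2b pools of a number come from the same female, per the labels. Their deviations from the group means correlated by -0.17, -0.30 and -0.28 at E9.75+12h, by 0.48, 0.62, 0.82 and 0.81 at E9.25+24h, and by -0.17, 0.39, 0.33 and 0.25 at E10.25+24h (Pearson, across genes, which are not independent).

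The 10 genes and the other lists were chosen with earlier results of these data known. Named are all 10 genes, Cdkn1a, the transgene check, and from each other list at most 3 called genes per direction and exposure, smallest FDR first. Usp7, Mdm4, Dcxr and Trp53 were named besides, to complete short counts or as the regulator itself.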

Additional observations from a re-analysis of the deposited data

Results flagged for a closer look

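In 44 groups of 4 pools (11 genes, Cdkn1a included, by genotype at E9.25+24h and E10.25+24h), 7 had a pool whose gap to its nearest neighbour exceeded Dixon's 95% limit for the group's range. Chance gives this in about 1 of 20 groups. Of these, 4 were in litter 3 of E9.25+24h: the lowest R2b pools of Ccng1 (81.0 CPM) and Zmat3 (74.9 CPM), the highest con pool of Aen (71.3 CPM) and the lowest con pool of Eda2r (8.81 CPM). At E10.25+24h the highest library labelled con of Sesn1 was litter 3 (35.4 CPM), one of those with transgene reads. The highest library labelled R2b of Sesn2 was litter 2 (48.6 CPM). The highest library labelled con of Cdkn1a was litter 1 (124.6 CPM), whose transgene reads went against its label.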

How the results depend on the processing

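The median log2 difference of the 10 genes kept its sign in every alternative run. Leaving out 1 litter, with or without the block, moved it between 0.07 and 0.37 (E9.75+12h), 0.13 and 0.18 (E9.25+24h), and 0.04 and 0.09 (E10.25+24h). The number called turned on single litters. For E9.75+12h it ran from 0 to 3 with 1 litter left out, with the block and without it, was 0 without litter 1 with or without the replicate block, and 1 with the block and without litter 2. It was 2 with the replicate block and 5 with all libraries in one fit (Aen and Mdm2 then lower). For E9.25+24h it ran with 1 litter left out from 1 to 3 with no block, being 1 without litter 1 or 2 and 2 without litter 3, and from 4 to 6 with the block. It was 6 with the replicate block and 2 with all libraries in one fit. For E10.25+24h it was 0 with any 1 litter left out and no block, and with the block it ran from 0 to 2, being 2 without litter 1. Without litters 1 and 3 it was 2 with the block and 0 without it. Among differences between exposures, 0 to 1 genes were called with 1 litter left out. The called gene was Sesn2 without litter 2 of E10.25+24h, a fit that kept the libraries labelled con with transgene reads.

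Sesn2 was called at E9.25+24h in 15 of 15 alternatives (highest FDR 0.0417) and at E9.75+12h in 11 of 13, the exceptions being without litter 1 (edgeR FDR 0.0746, with the replicate block 0.133). Over all genes, 2973 were called at E9.75+12h, 1775 with the replicate block, 4560 with all libraries in one fit, and with 1 litter left out 434 to 4065 with no block and 267 to 3151 with it. The numbers for E9.25+24h were 2335, 6086 with the replicate block, and with 1 litter left out 322 to 2127 with no block and 4450 to 6161 with it. Those for E10.25+24h were 0 with all litters, 614 with the block when litter 1 was left out, and 5 (877 with the block) without litters 1 and 3.

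Signs turned only for small differences. For E9.75+12h, log2 differences with 1 litter left out ran from -0.026 to 0.45 for Ccng1, -0.174 to 0.136 for Sesn1 and -0.158 to 0.279 for Eda2r. With the replicate block and without litter 2 they were -0.027, -0.175 and -0.164. For E10.25+24h they ran from -0.035 to 0.072 for Sesn1, -0.048 to 0.227 for Sesn2, -0.119 to 0.030 for Phlda3 and -0.107 to 0.112 for Eda2r. With the replicate block, Sesn1 was -0.035 without litter 1, Sesn2 was -0.047 without litter 2, and Sesn1, Phlda3 and Eda2r were -0.013, 0.029 and -0.098 without litter 4. Eda2r there was also -0.006 without the filter and -0.007 with all libraries in one fit. The difference of effect, E9.75+12h minus E9.25+24h, was 0.138 for Ccng1 without litter 3 of the first and -0.036 for Sesn2 without its litter 1. For Trp53inp1 it was -0.041 with the replicate block, -0.304 without litter 2 of E9.75+12h, and -0.077 or -0.026 without litter 1 or 2 of E9.25+24h. For Zmat3, the E10.25+24h effect minus that of E9.25+24h was -0.013, -0.011 and -0.015 without litters 1, 2 and 3 of E9.25+24h, and -0.013 and -0.021 without litters 2 and 4 of E10.25+24h. The causes were not tested. Having 3 or 4 litters limits the precision, and Eda2r, Phlda3 and Trp53inp1 had the 3 largest standard errors of the 10 genes in each exposure.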

Other observations

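Sesn2 is also a textbook target of ATF4, and Btg2 an early-response gene, so genes of those programs were counted. Of 15 ATF4 targets tested, 1 was called higher at E9.75+12h (Ddit4, an mTORC1 inhibitor, log2 0.81, edgeR FDR 0.00501) and 2 lower, Psat1 and Mthfd2, enzymes of serine and one-carbon metabolism (log2 -0.77, edgeR FDR 0.00200, and -0.68, edgeR FDR 0.00630). In that exposure 20.0% of all genes were called. The list median was -0.02, and without litter 1 only Psat1 was called, when 2.92% of all genes were. At E9.25+24h Ddit4 alone of the list was called (log2 0.69, edgeR FDR 0.0150), when 15.6% of all genes were, and the median was -0.13. Comparing within litters there, 1 was called higher and 6 lower, when 20.5% of all genes were called higher and 20.1% lower.

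Of 11 immediate early genes tested, Zfp36 was called higher at E9.75+12h (log2 0.55, edgeR FDR 0.0323), a call lost with litter as a block (edgeR FDR 0.0943). The list median was 0.21, and 20.0% of all genes were called in that exposure. At E9.25+24h Jun and Klf6 were called higher (log2 0.33, edgeR FDR 0.0205, and 0.60, edgeR FDR 0.0481) and Dusp1 lower (log2 -0.59, edgeR FDR 0.0123), with a median of 0.33. Of all genes, 9.09% were called higher and 6.5% lower there. With the block 5 of the list were higher and 2 lower, when 20.5% of all genes were called higher and 20.1% lower. Without litter 1, 2 or 3 and with no block none of the list was called. Of 13 genes that read out FGF signaling, 12 were called lower in each of the first 2 exposures (medians -1.39 and -1.25; 8 in each without litter 1), with 1 called higher at E9.25+24h, and 11 at E10.25+24h with the block and without litter 1. By label with all litters at E10.25+24h, none of the genes of these 3 lists was called.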
